A study of Homo sapiens with 47 samples.

Results

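The 7 human genes described here encode the kinases that phosphorylate splicing factors: SRPK1, SRPK2, CLK1, CLK2, CLK3, CLK4 and PRPF4B. They were chosen by gene family, and their sites were those whose midpoint lies within the RefSeq span of the gene (GRCh38.p14, the hg38 assembly) on the gene's strand. They are 7 of 15842 protein-coding genes of known strand, and they held 3413 of the 2230117 sites summed over 15 lists. The lists come from uSpyCLIP-seq, in which an RNA-binding protein is crosslinked to RNA with ultraviolet light and captured through SpyCatcher, a protein that forms a covalent bond with a short peptide tag. A list gives positions of bound sites and no read counts, and there was 1 list per group, so no test between groups was possible and no replicate error can be given.

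All groups were cells of the Lenti-X 293T line, which derives from human embryonic kidney, that stably expressed the captured protein and were irradiated with UV-C on ice. PTBP1 was captured from 10000000, 100000, 10000 and 1000 cells (2 libraries each) and RBFOX2 from 10000000 cells (2 libraries). SpyCatcher 1.0 and 2.0 were each used at 20 µg and 40 µg (1 library each); the labels of these 4 libraries name no captured protein, and the names of their lists say PTBP1. The Cas13 proteins dPspCas13b and dRfxCas13d, RNA-guided proteins in their inactivated form, were captured without a guide or with the guides EZH2g1 or EZH2g2 (3 libraries each, irradiated). The lists hold no expression level, so the cell line was not checked against markers, and a transcript that is bound less often cannot be told apart from one that is scarce. The 9 lists of PTBP1, RBFOX2 and the SpyCatcher comparison hold from 16507 to 964422 narrow sites, called clusters here, with a median width of 5 to 6 nt. The 6 Cas13 lists hold from 59 to 4701 sites with a median width of 124 to 177 nt. The minus-strand share of clusters was 53.96% at 10000000 cells, 55.45% at 100000, 61.25% at 10000 and 69.28% at 1000 cells, and 60.15% for RBFOX2. Of the 7 genes, CLK3 and PRPF4B lie on the plus strand and the others on the minus strand, and the part of this imbalance in the comparisons below was not tested.

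SR proteins are splicing factors with tails of alternating serine and arginine. SRPK1 and SRPK2 phosphorylate these tails mainly in the cytoplasm, which allows the SR proteins to enter the nucleus. The nuclear CLK kinases phosphorylate them further, which releases SR proteins from nuclear speckles and adjusts their activity. PRPF4B, listed as PRP4K by RefSeq, is a related nuclear kinase that acts on components of the spliceosome. CLK1 and CLK4 are close relatives, and CLK transcripts are known for regulated splicing of their own RNA. PTBP1 binds pyrimidine-rich RNA and mostly represses exons, and RBFOX2 binds the motif GCATG.

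SRPK1 carried more clusters per length than any other of the 7 genes in each of the 4 PTBP1 lists. In the 10000000-cell list the 88.13 kb span of SRPK1 (chr6:35832966-35921098, minus strand) held 460 clusters, or 5.22 per kb, with a counting interval of 4.75 to 5.72. CLK1 (chr2:200853009-200864658, minus, 11.65 kb) held 27 clusters, or 2.32 per kb (1.53 to 3.37). PRPF4B (chr6:4021300-4064983, plus, 43.68 kb) held 92, or 2.11 per kb (1.70 to 2.58). CLK4 (chr5:178602664-178627050, minus, 24.39 kb) held 46, or 1.89 per kb (1.38 to 2.52). SRPK2 (chr7:105114740-105399357, minus, 284.6 kb) held 438, nearly as many as SRPK1, over a much longer gene, or 1.54 per kb (1.40 to 1.69). CLK3 (chr15:74608372-74630201, plus, 21.83 kb) held 30, or 1.37 per kb (0.927 to 1.96). CLK2 (chr1:155262868-155273504, minus, 10.64 kb) held 0. The intervals of CLK1, PRPF4B, CLK4, SRPK2 and CLK3 all overlapped each other, except those of PRPF4B and SRPK2. Apart from that pair, the order among these genes is not set beyond counting error. All intervals are exact 95% intervals that cover counting error only and treat clusters as independent, although clusters of 1 transcript share its abundance. A cluster density is over the whole span, introns included.

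Thus 6 of the 7 genes had at least 1 PTBP1 cluster at 10000000 cells, beside 62.4% of all protein-coding genes of known strand. The count was 6 of 7 at 100000 cells (58.3% of all genes), 6 of 7 at 10000 cells (48.4%) and 5 of 7 at 1000 cells (32.7%), CLK3 being the gene that dropped out. The median density of the 7 genes at 10000000 cells was 1.89 clusters per kb, and that of all genes was 0.236 per kb. SRPK1 was denser than 97.9% of genes at 10000000 cells and than 99.44% at 1000 cells, whereas SRPK2 was denser than 75.44% and 83.67%.

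The strand of the clusters matched the annotated strand of these genes. Over the 15 lists, 1 site lay in any of the 7 spans on the opposite strand, a cluster in CLK3 in the 100000-cell list.

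The PTBP1 input series asks how the recovered binding sites depend on the number of cells. SRPK1 held the most clusters of the 7 genes at 10000 and 1000 cells. It held 460, 459, 374 and 108 clusters at 10000000, 100000, 10000 and 1000 cells. The covered length in SRPK1 was 5400, 4810, 2896 and 596 nt in the same order. SRPK2 held 438, 481, 147 and 14 clusters over the same inputs. The SRPK1 and SRPK2 counts were thus alike at the largest inputs and far apart at 1000 cells. PRPF4B held 92, 75, 31 and 4 clusters. CLK4 held 46, 49, 29 and 2, CLK1 held 27, 19, 13 and 3, and CLK3 held 30, 23, 6 and 0. As a result SRPK1 made up 42.09% of the clusters in the 7 genes at 10000000 cells, 41.5% at 100000, 62.33% at 10000 and 82.44% at 1000 cells. With clusters within 10 nt of each other merged, SRPK1 held 273, 293 and 264 at 10000000, 100000 and 10000 cells. Its fall from 460 to 374 clusters was thus smaller after merging.

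Because the lists differ in length, each gene was also expressed as a share of the clusters that fell in protein-coding genes of the same list. The SRPK1 share was 6.01 per 10000 clusters at 10000000 cells, 7.49 at 100000, 19.0 at 10000 and 45.2 at 1000 cells. Against the 10000000-cell list the SRPK1 share was 1.25 times as large at 100000 cells (95% counting interval 1.09 to 1.42). It was 3.16 times as large at 10000 cells (2.75 to 3.63) and 7.52 times as large at 1000 cells (6.04 to 9.30). The median gene among 7486 with at least 10 clusters in the 2 lists together stood at 0.445 at 1000 cells, and 98.14% of those genes had a lower ratio than SRPK1. Among genes on the minus strand, whose median ratio was 0.737, 97.21% were lower than SRPK1.

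The SRPK2 share at 1000 cells was 1.02 times that at 10000000 cells (0.555 to 1.74), an interval that lies wholly below that of SRPK1. CLK1 stood at 3.56 on 3 clusters (0.691 to 11.6), and CLK4 and PRPF4B each stood at 1.39, on 2 clusters (0.164 to 5.33) and 4 clusters (0.372 to 3.69). CLK3 had no cluster at 1000 cells, and 3 clusters, the limit taken here for a count of 0, would give a ratio of 3.20, while the upper end of the exact interval is 4.19. A share at least 2 times as large at 1000 cells was seen for 2 of the 6 genes that could be compared, SRPK1 and CLK1. The value was 16.4% over all genes compared and 21.8% over those on the minus strand, where both lie. The CLK1 interval includes 1. At 10000 cells such a share was seen for 2 of 6, SRPK1 at 3.16 and CLK4 at 2.45 (1.48 to 3.98). The value was 11.2% over all genes and 14.5% over those on the minus strand, where both lie. At 100000 cells such a share was seen for 0 of 6, beside 1.91% of all genes. A share at most 0.5 times as large was seen for 0 of 6 genes at 100000 cells (15.5% of all genes), 0 of 6 at 10000 cells (36.5%) and 1 of 6, CLK3, at 1000 cells (52.1%). The CLK3 value rests on 0 clusters at 1000 cells, and its interval includes 1. Other genes compared with 0 clusters at 1000 cells also count among the 52.1% and enter the median of 0.445. These comparisons share the 10000000-cell list.

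SRPK1 set the joint ratio of the 7 genes at the lowest inputs. The 7 genes together held 1093, 1106, 600 and 131 clusters at the 4 inputs, and their joint share at 1000 cells was 3.84 times that at 10000000 cells (3.18 to 4.61). Without SRPK1 the other 6 genes held 633, 647, 226 and 23 clusters, and the ratio was 1.16 at 1000 cells (0.733 to 1.76) and 1.39 at 10000 cells (1.19 to 1.62), against 2.13 with it. At 100000 cells it was 1.28 without SRPK1 and 1.26 with it. The median ratio of the 6 genes compared was 1.39 at 1000 cells, beside 0.445 over all genes.

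The SRPK1 clusters were concentrated in the middle of the gene. A 10 kb stretch from 35000 to 45000 nt after the annotated start (chr6:35876099-35886098), which is 11.35% of the span, held 141 of the 460 clusters at 10000000 cells. That is 30.65% (26.47 to 35.09) of the SRPK1 clusters. The stretch was picked out after the positions were seen. It held 146 of 459 clusters at 100000 cells, 139 of 374 at 10000 cells and 53 of 108 at 1000 cells, the last being 49.07% (39.33 to 58.87). The 10 kb stretch therefore lost fewer clusters from 10000000 to 10000 cells than the rest of SRPK1, and its interval at 1000 cells lies wholly above that at 10000000 cells.

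A second dense place in SRPK1 lay near its 3′ end. The 1 kb window from 86000 nt after the start (chr6:35834099-35835098) held 37 clusters at 10000000 cells, the most of any 1 kb window of the gene, then 26, 36 and 6 at the lower inputs. The last 2000 nt of the span held 10.0% of SRPK1 clusters at 10000000 cells (7.42 to 13.1), 5.45% at 100000 cells, 11.8% at 10000 cells and 6.48% at 1000 cells. Over all genes of at least 10 kb the same values were 6.72%, 3.77%, 7.86% and 9.75%. The dip at 100000 cells was thus seen in SRPK1 and over all genes. A long noncoding RNA gene of the same strand, LOC124901311 (chr6:35847804-35857179), lies inside SRPK1. Its span held 74, 77, 61 and 13 of the clusters counted for SRPK1 at the 4 inputs, which cannot be told apart from clusters of the noncoding RNA.

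**Figure D1:**
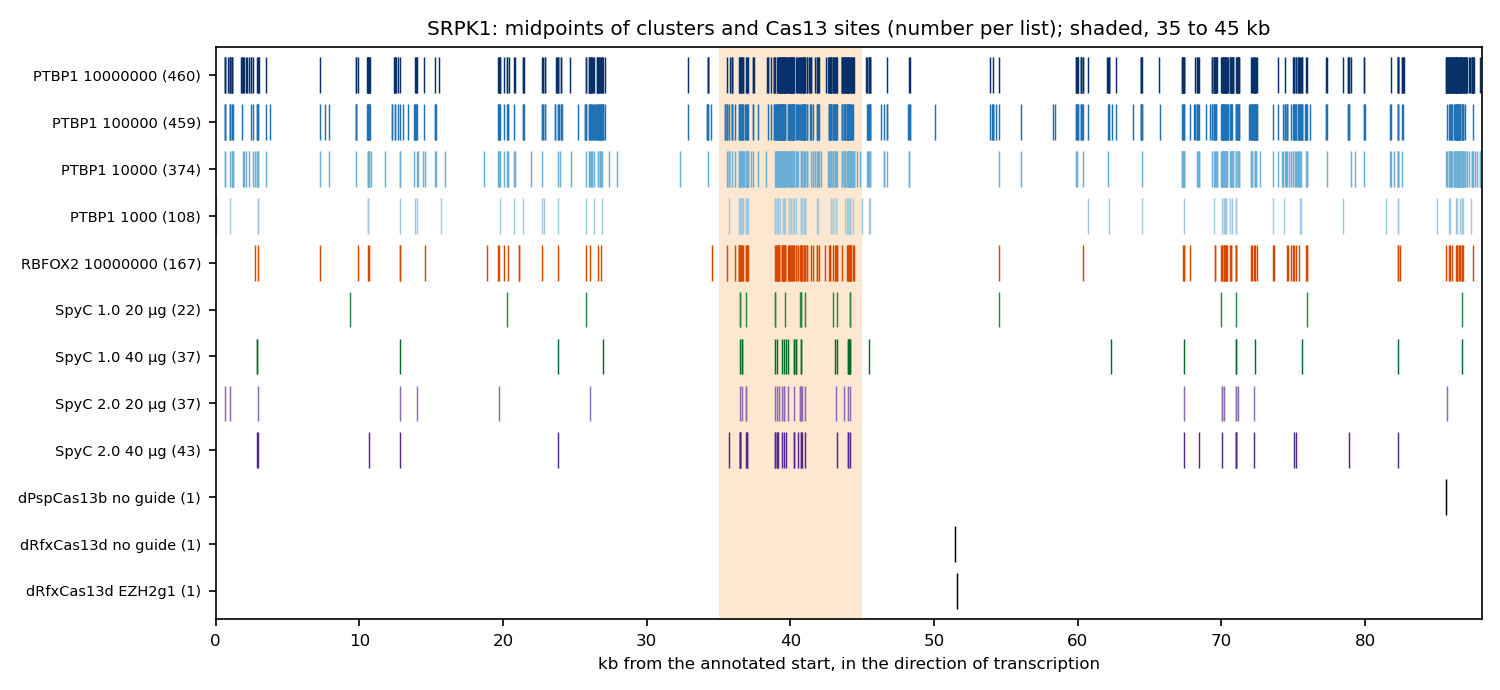
Midpoints of SRPK1 clusters (1 row per list, number in brackets) and of the 3 Cas13 sites in SRPK1, by distance in kb from the annotated start; the stretch from 35 to 45 kb is shaded. In the shaded stretch the PTBP1 rows hold 141, 146, 139 and 53 midpoints and the RBFOX2 row 85.

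A larger share of SRPK1 clusters was found again at every lower input than of clusters over all protein-coding genes together. This measure is not independent of the counts above, since more clusters in a list give more to overlap. Genes with counts like those of SRPK1 were not compared in this way. Of the 460 SRPK1 clusters at 10000000 cells, 65 shared at least 1 nt with a cluster at every lower input, or 14.1% (11.1 to 17.7), beside 1.39% of clusters over all protein-coding genes. Of these 65, 34 lay in the stretch from 35000 to 45000 nt. The numbers for the other genes were 4 of 438 in SRPK2, 3 of 92 in PRPF4B, 2 of 46 in CLK4, 1 of 27 in CLK1 and 0 of 30 in CLK3. Repeated clusters were wide: in SRPK1 their median width was 22 nt, against 7 nt for the others. Of the 14 SRPK1 clusters of at least 50 nt, 13 were met at every lower input, or 92.9%, beside 48.2% of clusters that wide over all genes. Of the narrower SRPK1 clusters 11.7% were met, beside 1.01% over all genes, so the difference was present in both width classes. Seen from the other side, 93 of the 108 SRPK1 clusters at 1000 cells shared at least 1 nt with the 10000000-cell list, or 86.1% (78.1 to 92.0), beside 72.94% over all genes.

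At 10000000 cells the SRPK2 clusters, nearly as many as those of SRPK1, lay over a longer gene and occupied a smaller share of it. Of its 285 windows of 1 kb, 106 held a PTBP1 cluster at 10000000 cells, 133 at 100000, 60 at 10000 and 12 at 1000 cells, and the fullest window of the 10000000-cell list held 16 of 438 clusters. At 10000000 cells 37.19% of SRPK2 windows thus held a cluster, against 59 of 89, or 66.29%, in SRPK1. The last 2000 nt of SRPK2 held 4 of 438 clusters at 10000000 cells, or 0.913% (0.249 to 2.32), and 0 of 147 at 10000 cells. The 4 SRPK2 clusters met at every input lay 70011, 89271, 120651 and 137421 nt after the start. The SRPK2 cluster at 120651 nt (chr7:105278681-105278732) was the widest of the 4, at 52 nt. The 1 kb window around this cluster held 9, 15, 6 and 1 PTBP1 clusters at the 4 inputs.

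**Figure D2:**
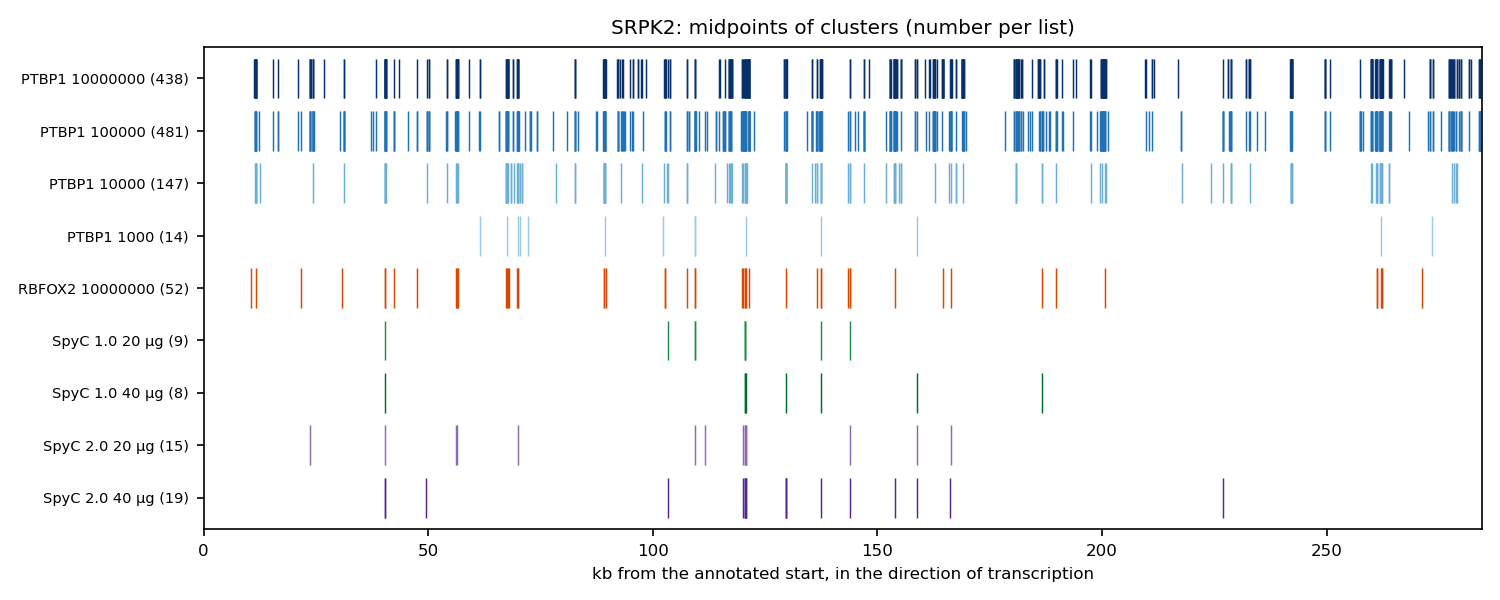
Midpoints of SRPK2 clusters by distance in kb from the annotated start, 1 row per list with the number in brackets. The 438 midpoints at 10000000 cells fall in 106 of 285 windows of 1 kb, and the 14 midpoints at 1000 cells include 11 upstream of the middle of the span.

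The CLK1 clusters lay mostly in 1 place. Of 27 clusters at 10000000 cells, 20 lay from 4000 to 5000 nt after the start (chr2:200859659-200860658), or 74.1% (53.7 to 88.9) in 8.58% of the span. The same 1 kb of CLK1 held 12 of 19 clusters at 100000 cells, 7 of 13 at 10000 cells and 2 of 3 at 1000 cells. The 1 CLK1 cluster met at every input was chr2:200859963-200859983, in that stretch. No cluster lay in the last 2000 nt of CLK1 in any PTBP1 list. With clusters within 10 nt of each other merged, CLK1 held 11 at 10000000 cells and 12 at 100000 cells. The counts and interval above thus include close neighbours.

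CLK4, the closest relative of CLK1, had 2 such places. The 1 kb from 6000 nt after the start (chr5:178620051-178621050) held 19 of its 46 clusters at 10000000 cells, and the 1 kb from 9000 nt (chr5:178617051-178618050) held 14. At 100000 cells these stretches of CLK4 held 18 and 10 of 49 clusters, at 10000 cells 9 and 7 of 29, and at 1000 cells each held 1 of 2. The 2 CLK4 clusters met at every input lay 1 in each stretch. A further 2 of the 46 clusters lay in RN7SKP70, a pseudogene inside CLK4 whose strand is not given in the table used.

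CLK3 clusters lay only in the middle of the gene, between 7634 and 13875 nt after the start at 10000000 cells. The 3 kb from 11000 nt (chr15:74619372-74622371) held 24 of 30 clusters at 10000000 cells, 14 of 23 at 100000 and 5 of 6 at 10000 cells. The first 7421 nt of CLK3, which an antisense gene (CLK3-AS1) shares, held no cluster on the CLK3 strand in any PTBP1 or RBFOX2 list. Where in CLK3 the 1 opposite-strand cluster of the 100000-cell list lay was not examined.

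PRPF4B differed from the CLK genes in having clusters at its 3′ end. Its last 2000 nt held 25 of 92 clusters at 10000000 cells, or 27.2% (18.4 to 37.5), beside 6.72% over all genes of at least 10 kb. At the lower inputs the last 2000 nt of PRPF4B held 22 of 75, 13 of 31 and 2 of 4 clusters. A second group of PRPF4B clusters lay from 17000 to 19000 nt (chr6:4038300-4040299), with 33 of 92, 23 of 75, 5 of 31 and 1 of 4 clusters at the 4 inputs. The group in the last 2000 nt thus made up 41.9% (24.6 to 60.9) of the PRPF4B clusters at 10000 cells and the group at 17000 to 19000 nt 16.1% (5.45 to 33.7), while at 10000000 cells the latter was the larger, with 33 against 25 clusters. The intervals of both groups overlap at either input. A further 2 windows of PRPF4B, from 7000 and from 8000 nt, held 4 and 6 of its 31 clusters at 10000 cells, and 5 and 6 of 92 at 10000000 cells. These windows of CLK1, CLK4, CLK3 and PRPF4B were chosen after the positions were seen.

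**Figure D3:**
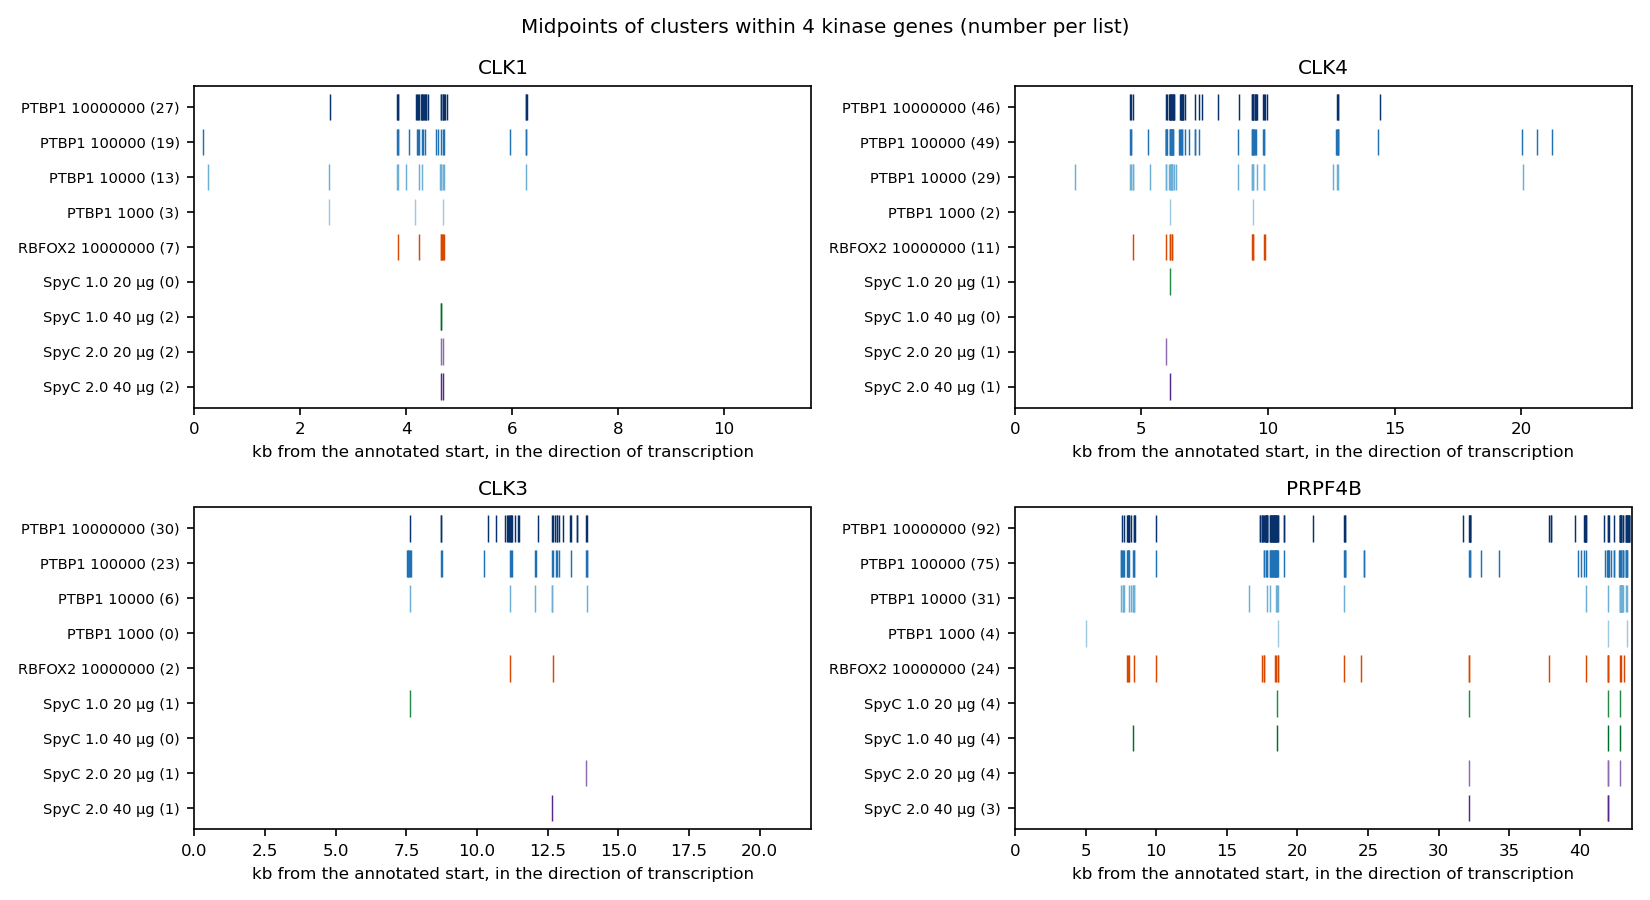
Midpoints of clusters in CLK1, CLK4, CLK3 and PRPF4B by distance in kb from the annotated start, 1 row per list with the number in brackets. At 10000000 cells of PTBP1, 20 of 27 CLK1 clusters lie between 4 and 5 kb, and 25 of 92 PRPF4B clusters lie in the last 2000 nt.

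CLK2 had no site in any of the 15 lists on either strand. The limit of 3 clusters for a count of 0 corresponds to 0.282 clusters per kb in CLK2, and the upper end of the exact interval is 0.347 per kb. Both lie below the intervals of the other 6 genes at 10000000 cells. In that list the nearest minus-strand clusters lay 8886 nt beyond one end of CLK2 and 44904 nt beyond the other. A gene of this length without a cluster was common: of 632 protein-coding genes of 10 to 12 kb, 278, or 43.99%, had no cluster at 10000000 cells. These genes were taken by length alone, so genes that are not expressed in these cells may be among them. SRPK3, the third SRPK gene, which is known mainly from muscle, also had 0 clusters in each of the 9 lists.

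The RBFOX2 list allows the same genes to be compared between 2 splicing regulators at 10000000 cells. RBFOX2 clusters were found in 6 of the 7 genes, beside 41% of all protein-coding genes, and CLK2 was again the exception. SRPK1 held 167 RBFOX2 clusters, SRPK2 52, PRPF4B 24, CLK4 11, CLK1 7 and CLK3 2. Relative to the clusters in protein-coding genes of each list, SRPK1 had 2.95 times the PTBP1 share in the RBFOX2 list (2.45 to 3.52), and 94.08% of 7522 genes compared had a lower ratio. PRPF4B stood at 2.12 (1.29 to 3.35), CLK1 at 2.10 (0.773 to 4.95) and CLK4 at 1.94 (0.906 to 3.80). SRPK2 stood at 0.963 (0.708 to 1.29) and CLK3 at 0.541 (0.0626 to 2.13). A ratio of at least 2 was seen for 3 of the 6 genes compared (SRPK1, PRPF4B and CLK1), beside 13.1% of all genes, and the CLK1 interval includes 1. A ratio of at most 0.5 was seen for 0 of 6, beside 45.3% of all genes. The median ratio over the 6 genes was 2.02, and over all genes it was 0.579. The RBFOX2 list is shorter than the PTBP1 list of the same input, with 117590 against 964422 clusters, and at a list length of 248168 (PTBP1 at 10000 cells) the SRPK1 share was also higher than in the longest list, so that protein and list length cannot be told apart here. Without SRPK1 the joint ratio of RBFOX2 over PTBP1 was 1.23 (0.982 to 1.53), against 1.95 (1.70 to 2.24) with it.

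Most RBFOX2 clusters in these genes overlapped PTBP1 clusters, as over all genes. In SRPK1, 142 of 167 RBFOX2 clusters shared at least 1 nt with a PTBP1 cluster at 10000000 cells, or 85.0% (78.7 to 90.1), beside 81.72% over all genes. The overlap of SRPK1 with the shorter 10000-cell PTBP1 list stood further from the rest of the genes: it was 137 of 167, or 82.0% (75.4 to 87.5), beside 51.71%. In SRPK2 the overlap with the 10000-cell list was 16 of 52, or 30.8% (18.7 to 45.1). The SRPK1 interval lies above the value for all genes and the SRPK2 interval below it. This overlap is not independent of the counts, since more clusters in the 10000-cell list give more to overlap. That list held 374 clusters in SRPK1, or 4.24 per kb, and 147 in SRPK2, or 0.517 per kb. All 7 RBFOX2 clusters of CLK1 and both of CLK3 overlapped PTBP1 clusters at 10000000 cells, as did 10 of 11 in CLK4 and 20 of 24 in PRPF4B. The stretch from 35000 to 45000 nt held 85 of the 167 RBFOX2 clusters of SRPK1, or 50.9% (43.1 to 58.7), against 30.65% of PTBP1 clusters at the same input. In the shorter PTBP1 lists it held 37.17% at 10000 cells and 49.07% at 1000 cells. Protein and list length cannot be told apart here either. In CLK1, 6 of 7 RBFOX2 clusters lay in the stretch from 4000 to 5000 nt, and in CLK4 the 2 stretches held 4 and 5 of 11. In SRPK2, 37 of 52 RBFOX2 clusters lay upstream of the middle of the span, against 188 of 438 PTBP1 clusters at the same input. In the shorter PTBP1 lists 83 of 147 did so at 10000 cells and 11 of 14 at 1000 cells.

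A single cluster of the 9 lists fell within 250 nt before to 50 nt after an annotated start of any of the 7 genes, and it was an RBFOX2 cluster in SRPK2. Windows of this kind held an RBFOX2 cluster in 1.009% of 22198 windows of protein-coding genes, and 12 windows belonged to the 7 genes. The cluster covers bases 14 to 16 after an annotated start that lies inside the SRPK2 span, at chr7:105388906-105388908 on the minus strand. The sequence is shown because it is the only cluster of these genes whose bases are held in the sequence tables used here. It is taken from RefSeq (GRCh38.p14), covers chr7:105388892-105388921 on the minus strand and reads 5′ to 3′ with the bases of the cluster in capitals.
SRPK2 start region: aggcgcggttctcGTCtcctcccggccggc
Of these 30 bases 23 were G or C. The motif GCATG, searched on both strands, was not among the letters of the 300 nt window, and 26.86% of all windows hold it.

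The SpyCatcher lists compare 2 versions of the capture protein. SRPK1 held 22 clusters with SpyCatcher 1.0 and 37 with SpyCatcher 2.0 at 20 µg, and 37 and 43 at 40 µg. SRPK2 held 9 and 15 clusters at 20 µg, and 8 and 19 at 40 µg. PRPF4B held 4, 4, 4 and 3 clusters in the order 1.0 at 20 and 40 µg, then 2.0 at 20 and 40 µg, CLK1 held 0, 2, 2 and 2, and CLK3 and CLK4 each held 1, 0, 1 and 1. In that order 5, 4, 6 and 6 of the 7 genes had a cluster, beside 24.1%, 25.1%, 28.4% and 29.6% of all genes. The 7 genes together held 37 clusters with version 1.0 and 60 with version 2.0 at 20 µg, and 51 and 69 at 40 µg. Relative to the clusters in protein-coding genes of each list, the joint share with version 2.0 was 1.06 times that with 1.0 at 20 µg (0.691 to 1.64) and 0.865 times at 40 µg (0.594 to 1.27). For SRPK1 the ratios were 1.10 (0.630 to 1.95) and 0.743 (0.468 to 1.19), and for SRPK2 1.09 (0.446 to 2.82) and 1.52 (0.635 to 4.01). Each of these intervals includes 1. The joint intervals lie between 0.5 and 2, while those of SRPK2 and that of SRPK1 at 40 µg reach beyond these values. The intervals cover counting error only. With 1 library per group they cannot exclude a change between the versions. A ratio of at least 2 was seen for 0 of the 2 genes with enough clusters, beside 10.8% of genes at 20 µg and 9.15% at 40 µg, and a ratio of at most 0.5 for 0 of 2, beside 8.3% and 5.51%. Between 40 and 20 µg the SRPK1 ratio was 1.51 (0.869 to 2.69) for version 1.0 and 1.02 (0.645 to 1.64) for version 2.0, and the SRPK2 ratio was 0.799 (0.268 to 2.33) and 1.12 (0.538 to 2.36). With version 1.0, 0 of the 2 genes reached a ratio of 2 (10.1% of all genes) or fell to 0.5 (7.28%), and with version 2.0 likewise 0 of 2 (7.69% and 6.33%).

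The SpyCatcher clusters lay in some of the places found with PTBP1. Few or none were seen in others, where these short lists leave few clusters to compare. In SRPK1, the stretch from 35000 to 45000 nt held 14 of 22, 23 of 37, 21 of 37 and 27 of 43 clusters in the same order of lists. That is 56.8% to 63.6% of the SRPK1 clusters, against 30.65% in the 10000000-cell PTBP1 list. In the 1000-cell PTBP1 list, whose 30911 clusters are nearest in number to these lists, it was 49.07%. That value lies within the interval of each SpyCatcher list. The window from 86000 nt near the 3′ end of SRPK1 was the fullest in the 10000000-cell PTBP1 list, with 37 clusters. In the 1000-cell PTBP1 list it held 6 of 108. In the SpyCatcher lists it held 1, 1, 0 and 0, and a difference from the 1000-cell list was not tested. Of the SRPK1 clusters, 20 of 22, 32 of 37, 35 of 37 and 42 of 43 overlapped the 10000000-cell PTBP1 list, or 90.9%, 86.5%, 94.6% and 97.7%, beside 81.12% to 82.96% over all genes. The interval lay above the value for all genes only with SpyCatcher 2.0 at 40 µg (87.7 to 99.9, beside 82.68%). In SRPK2 the window from 120000 nt (chr7:105278358-105279357), which is 0.351% of the span, held 3 of 9, 3 of 8, 5 of 15 and 6 of 19 clusters. This window was picked out after the positions were seen, and it was the fullest SRPK2 window of both SpyCatcher 2.0 lists. All 6 CLK1 clusters of the 4 SpyCatcher lists lay between 4649 and 4690 nt after the start. The CLK4 window from 9000 nt held 0 clusters in the 4 lists, but all of CLK4 held only 1, 0, 1 and 1.

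Across the 9 lists, 5 SRPK1 clusters of the 10000000-cell list were met in every other list, and 4 of them lay between 36489 and 44138 nt after the start. The widest was chr6:35880252-35880361, of 110 nt, at 40792 nt. The fifth lay at 71019 nt (chr6:35850044-35850114), within the noncoding gene LOC124901311. PRPF4B had 1 such cluster, chr6:4063265-4063290, in its last 2000 nt, and the other genes had 0. Over all protein-coding genes, 0.197% of clusters were met in all 9 lists, 5.43% of genes had at least 1 such cluster and 0.297% had at least 5.

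The Cas13 lists had 3 sites in the 7 genes, all of them in SRPK1. The list of dPspCas13b without a guide had 1 site, chr6:35835391-35835501, with its midpoint 2480 nt before the 3′ end of SRPK1. This site contained 3 PTBP1 clusters of the 10000000-cell list, 1 of the 10000-cell list and 1 RBFOX2 cluster. The lists of dRfxCas13d without a guide and with EZH2g1 had 1 site each, chr6:35869554-35869686 and chr6:35869453-35869614, which overlap each other and have their midpoints 51478 and 51565 nt after the start. Neither contained a cluster of any of the 9 lists. The lists of dPspCas13b with EZH2g1 or EZH2g2 and of dRfxCas13d with EZH2g2 had none. A site was thus present in 1 of the 7 genes for dPspCas13b without a guide (10.8% of all genes), dRfxCas13d without a guide (10.4%) and dRfxCas13d with EZH2g1 (4.45%). It was present in 0 of 7 for dPspCas13b with EZH2g1 (0.284%) and EZH2g2 (2.71%) and for dRfxCas13d with EZH2g2 (5.76%). Groups without irradiation were not analysed here.

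The genes that the kinases act on, or act with, were counted in the same way. Of a list of 38 such genes 33 had a known strand. All 12 SR protein genes among them had a PTBP1 cluster at 10000000 cells, with a median of 3.93 clusters per kb, and 8 of 12 had one at 1000 cells. SRSF11 held 209, 173, 133 and 36 clusters at the 4 inputs, and its share at 1000 cells was 5.52 times that at 10000000 cells (3.76 to 7.89). SRSF1 held 137, 124, 115 and 10 (ratio 2.34, 1.10 to 4.43). SRSF5, the densest at 13.98 clusters per kb, held 68, 35, 36 and 4, and SRSF3 held 39, 27, 27 and 3. TRA2B held 104, 103, 100 and 4, SRSF10 70, 71, 57 and 3, and SRSF6 31, 25, 15 and 0. At 10000 cells 8 of the 12 SR protein genes had a share at least 2 times that at 10000000 cells, beside 11.2% of all genes, and at 1000 cells 4 of 11 compared, beside 16.4%. At 1000 cells 3 of the 11, each with 0 clusters there, had a share at most 0.5 times as large, beside 52.1% of all genes. Of 3 spliceosomal substrates compared at 1000 cells, 0 had a share at least 2 times as large. A share at most 0.5 times as large was seen for 2, each on 0 clusters at that input. Of 6 phosphatases, import factors and chaperones, 2 had the former and 0 the latter. Of 8 genes compared as other kinases, a group that includes a topoisomerase, 0 had the former and 6 the latter. DYRK3, a kinase related to the CLK genes, held 105, 27, 15 and 1 clusters. The SRPK1 ratio of 7.52 was higher than that of each SR protein gene named here, although its interval overlaps those of SRSF11 and SRSF3.

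The genes with counts most like those of SRPK1 over the 9 lists, by Euclidean distance of log2 of clusters plus 1 among genes with at least 10 clusters at 10000000 cells, were RBM26, ZZZ3 and PRRC2B. The nearest, at a distance of 1.13, was RBM26, with 460, 428, 370 and 106 clusters at the 4 PTBP1 inputs and 181 for RBFOX2. The genes most like CLK1 were ZNF200 (distance 1.07), AKR1A1 (1.09) and C12orf76 (1.14).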

How the data were processed

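The labels give 47 libraries in 20 groups. The files used here came from 17 lists of sites, each of 1 group and tied to the first of its libraries; 15 lists were used, and those of a further guide of either Cas13 protein are not reported here. The values in the deposited lists are other than counts: chromosome, start, end and strand, with starts counted from 0 and given here from 1. Per the submitters' processing notes the reads were processed with Trim Galore 0.0.6 and STAR 2.7.9a on hg38. The site caller, its thresholds, duplicate removal and pooling of libraries were not stated in the labels or files (not given in the sources used here), so the depth behind each list is unknown.

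Gene spans came from RefSeq (GRCh38.p14) and strands from its promoter table, which gave 15842 of 20037 protein-coding genes a strand. A site was counted in a gene by its midpoint on the gene's strand. Overlap meant at least 1 shared nt on the same strand. Shares are per clusters in protein-coding genes, and ratios of shares were compared for genes with at least 10 clusters in both lists together. Intervals are exact (Clopper-Pearson, or Poisson for densities, at 95%; conditional binomial for ratios of shares) and cover counting error only; PCR copies and neighbouring clusters are not independent. With 1 list per group there is no test and no p-value. The counting and overlap code was tested on simulated data of 400 genes. Work was done in scipy 1.17.1, pandas 2.3.3, numpy 2.4.6 and matplotlib 3.10.9 under Python 3.11.15. All 7 genes are named, with SRPK3, up to 8 related genes by density at 10000000 cells and the 3 genes most like SRPK1 and CLK1. The genes, lists and comparisons were chosen with earlier results of these data known. Exons and sequence beyond the RefSeq start windows were not used here.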

Additional observations from a re-analysis of the deposited data

How the results depend on the processing

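Counting sites by any overlap with the span, on either strand, or only outside other genes of the same or an unknown strand kept every total, ratio and gene count within 1.5 times its value or within its interval, as did shares of all clusters in place of those in protein-coding genes, and overlaps of at least 50% of the shorter site. Merging clusters within 10 nt lowered the total of the 7 genes at 10000000 cells from 1093 to 703, and keeping clusters of at least 5 nt lowered that at 1000 cells from 131 to 86. At 10000000 cells merging lowered SRPK1 from 460 to 273 and CLK1 from 27 to 11. Without SRPK1, an alternative added after seeing the data, the joint ratio of shares was 1.39 at 10000 cells, 1.16 at 1000 cells and 1.23 for RBFOX2 over PTBP1. At 10000000 cells the last 1000 nt held 3.20% of the clusters of the 7 genes, against 6.86% in the last 2000 nt, and for SRPK1 2.39% against 10.0%. When midpoints within 50 nt counted as a match, the share of the 7 genes' clusters met in the 10000000-cell list was 83.3% at 100000, 86.3% at 10000 and 90.1% at 1000 cells (60.2%, 70.8% and 80.2% by shared bases), 90.9% for RBFOX2, and 97.3%, 96.1%, 98.3% and 95.7% for SpyCatcher 1.0 at 20 and 40 µg and 2.0 at 20 and 40 µg. With at least 30 clusters in both lists together, the share of all genes with a ratio of at least 2 was 1.26% at 100000 cells, 12.3% at 10000 and 14.3% at 1000 cells, 14.4% for RBFOX2, and 6.80% and 4.47% for SpyCatcher 2.0 over 1.0 at 20 and 40 µg. In all, 583 recomputed values stayed close to the reported one and 49 moved. A reversal could be scored only for ratios of at least 2 or at most 0.5, and 0 were scored. The 583 include values that could hardly change, such as counts of 0 in CLK2 and ratios with wide intervals. Density per exon length was not run, because exons were not used here, and no list could be left out, because each group has 1. No paired analysis was possible because each group has a single list, although the libraries share replicate numbers. CLK1, CLK3 and CLK4 rest on 3 clusters or fewer at 1000 cells and in the SpyCatcher lists, which limits what can be said of them there.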
